A study of Homo sapiens with 12 samples.

Results

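The regions described here are RNA immunoprecipitation peaks that lay on the 5′ untranslated region (5′ UTR) of an mRNA and touched no base of its coding sequence. A peak was taken as a member when its blocks overlapped the 5′ UTR of the Ensembl canonical transcript of its gene, on the same strand and with no base on that transcript's start codon or coding sequence. By this rule 3557 of the 101848 peaks in 6 lists were members, and they lay on 1793 genes. The lists came from the established human liver cancer line HepG2 after RIP-seq, in which RNA bound to a protein is recovered with an antibody and compared with the input RNA. There were 2 RIP samples for each of 3 proteins, METTL16, eIF3a and eIF3b, and each sample had its own list.

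Per the study's methods, the cells were stable lines that overexpressed METTL16, eIF3a or eIF3b with a Flag tag. They were cross-linked with ultraviolet light and sonicated before the pull-down. By the labels, METTL16 and eIF3b were pulled down with a Flag antibody, whereas eIF3a was pulled down with one raised against the protein. The names of all 6 deposited lists say flag. For eIF3a, antibody and protein therefore cannot be told apart if the labels hold. The 6 inputs served only as the baseline of the peak calling, and no control-antibody list was analysed. The fold enrichment used below is the authors' ratio of RIP over input for a peak, and since no read counts were used, the depth behind it is unknown.

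The 5′ UTR runs from the cap to the start codon. In the usual route of initiation, eIF3 helps to bring the small ribosomal subunit to the capped end of the mRNA, from where it scans towards the first suitable start codon. Stable stem-loops, upstream start codons and binding sites for proteins lie in this stretch, and a well known one is the iron responsive element, a stem-loop of ferritin mRNAs that iron regulatory proteins bind. eIF3a and eIF3b are core subunits of eIF3, and eIF3 has been described as binding the 5′ UTR of JUN. METTL16 is an RNA methyltransferase best known for N6-methyladenosine in MAT2A mRNA and in U6 small nuclear RNA.

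The sequences of a few sites show what these peaks covered. The first set holds the iron responsive element loops that lay under a member peak, with the letters CAGTG of the loop in capitals. Each is 30 bases of the 5′ UTR, read 5′ to 3′ from GENCODE transcripts on GRCh38 with positions counted from 1.
FTH1, chr11:61967573-61967602, minus strand: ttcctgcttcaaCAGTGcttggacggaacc
FTL, chr19:48965335-48965364, plus strand: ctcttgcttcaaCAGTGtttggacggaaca
SLC40A1, chr2:189580660-189580689, minus strand: caacttcagctaCAGTGttagctaagtttg
EPAS1, chr2:46297479-46297508, plus strand: tacaatcctcggCAGTGtcctgagactgta

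The second set holds the 30 bases at the centre of the stretch that all 6 lists shared, for 6 of the 10 genes with the best worst rank by p-value over the 6 lists. Capitals mark runs of at least 3 G or 3 C, and none of these windows held an ATG.
PAFAH1B1, chr17:2593823-2593852, plus strand: aacggctgaggagCCCgCCCgctCCCCtcc
PPP1CC, chr12:110742816-110742845, minus strand: gtggcaGGGGGGGGaCCCgccgcggctgct
PLCE1, chr10:94030788-94030817, plus strand: caggtaacagaggaaggaaaattgatctac
TGFB1, chr19:41353785-41353814, minus strand: caCCCCCCCggctctgagccgCCCgcGGGG
CPEB4, chr5:173888883-173888912, plus strand: tcctgatcgcgaCCCCCgcaagaGGGagaa
HOMER1, chr5:79513507-79513536, minus strand: gcgtgcgctgcgCCCCCagcctgctgccag
The window of PLCE1 held 40% G and C and the other 5 held 63.3% to 86.7%.

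The third set holds the same kind of window for genes whose overlapping 5′ UTR peaks appeared in both lists of 1 protein while the 4 lists of the other proteins had no peak on the gene. RAX and SBDS were of this kind for METTL16, DLG2 for eIF3a and ZDHHC14 for eIF3b.
RAX, chr18:59273304-59273333, minus strand: GGGcttcgCCCgcggagcttgacctaGGGt
SBDS, chr7:66995497-66995526, minus strand: gtcagtgccgcgcgccgatcggtcgttacc
DLG2, chr11:85626627-85626656, minus strand: aagagatattgactcctgtggcagtggaaa
ZDHHC14, chr6:157381600-157381629, plus strand: tCCCCtcGGGGcgcagtgctcGGGGGtcgg

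Of 9 hepatocyte or HepG2 marker genes, 8 carried a peak in at least 1 list, and TTR, which encodes transthyretin, carried none. Of 4 blood and endothelium markers, 2 carried a peak, and PECAM1 had a 5′ UTR peak of 3.16-fold in eIF3a replicate 2. The second eIF3a list stood apart from the other 5. It held the fewest members, the highest fold among them was 28.1 against 176 to 3420 elsewhere, and results that rest on it are given with and without it. The study's methods give 2 biological replicates per sequenced sample, and the p-values below measure only the spread between these lists.

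Peaks within the 5′ UTR were a small part of every list. The region itself is small, at 4.83% of the canonical exon bases of genes with any peak and a canonical 5′ UTR. Members held 1.06% to 2.73% of the peak bases of a list, and peaks that reach the start codon are left out of these shares. METTL16 had 504 such peaks of 13199 in replicate 1 and 531 of 13136 in replicate 2, which is 3.82% and 4.04%. eIF3a had 645 of 21733 and 287 of 12921, or 2.97% and 2.22%, and eIF3b had 891 of 20832 and 699 of 20027, or 4.28% and 3.49%. Both eIF3a lists lay below all 4 lists of the other proteins, while those of METTL16 and eIF3b overlapped.

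The mean share was 3.93% ± 0.158 (SD, n = 2) for METTL16, 2.59% ± 0.528 (SD, n = 2) for eIF3a and 3.88% ± 0.556 (SD, n = 2) for eIF3b. METTL16 exceeded eIF3a by 1.34 percentage points, with an exact two-sided permutation p of 0.333, and eIF3a minus eIF3b was -1.29 points with the same p. METTL16 and eIF3b differed by 0.0467 points (exact permutation p = 1). With 2 lists against 2 the smallest possible p is 0.333, so no difference in share could pass the threshold of 0.05. Without eIF3a replicate 2 the eIF3a share was 2.97% and METTL16 exceeded it by 0.963 points.

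GC content also differed between the lists. All peaks together held 59.7% and 61.7% G and C in the METTL16 lists, 54.2% and 53.8% in the eIF3a lists, and 59.0% and 54.7% in the eIF3b lists. The 5′ UTR peaks held more in every list, with 72.4% and 72.3% for METTL16, 68.2% and 65.0% for eIF3a, and 70.4% and 68.4% for eIF3b. The order of the proteins was the same for 5′ UTR peaks as for their shares in the mean. By list it was not, since eIF3b replicate 1 had the highest share and a lower GC content than both METTL16 lists. The part of GC content in the shares was not tested.

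**Figure D1:**
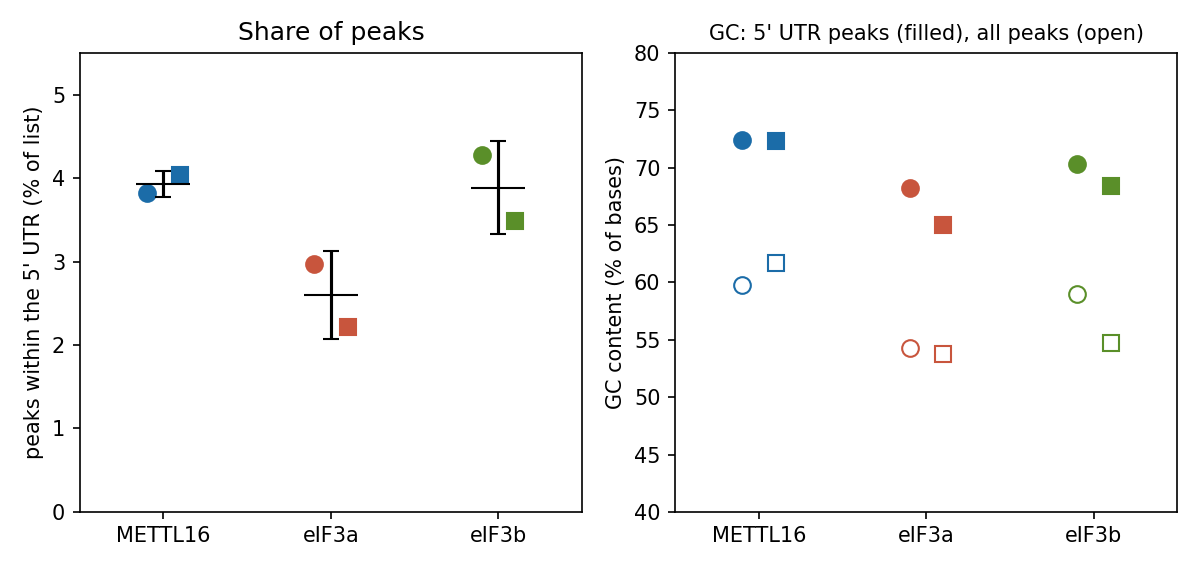
Left, peaks within the 5′ UTR as a percentage of each list (circles, replicate 1; squares, replicate 2), with the mean and SD of each protein in black. Right, GC content in percent of the 5′ UTR peaks (filled) and of all peaks (open); the axis starts at 40%. Both eIF3a lists sit lowest in share, at 2.97% and 2.22%, and in every list the filled point lies above the open one.

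The members lay mostly on genes with a long 5′ UTR. Of 10717 genes with any peak and a canonical 5′ UTR, 16.7% carried a 5′ UTR peak in at least 1 list. The median 5′ UTR length was 142 bases over the 10717 genes, 311 bases over the 1793 genes with a member and 668 bases over the 30 genes with a member in all 6 lists. A 5′ UTR peak was present in some list for 1.89% of 3919 genes with a 5′ UTR of up to 100 bases, 26.7% of 1679 genes with 201 to 300 bases and 54.1% of 111 genes with more than 1000 bases.

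The 3 proteins followed the same course. Among genes with 501 to 1000 bases, 9.94% had a member in both METTL16 lists, 6.58% in both eIF3a lists and 17.4% in both eIF3b lists. Among genes with 101 to 200 bases these shares were 0.74%, 0.101% and 0.74%. Since a peak that reaches the start codon is not a member, a short 5′ UTR leaves little room for one, and the length is in part what the rule asks for.

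**Figure D2:**
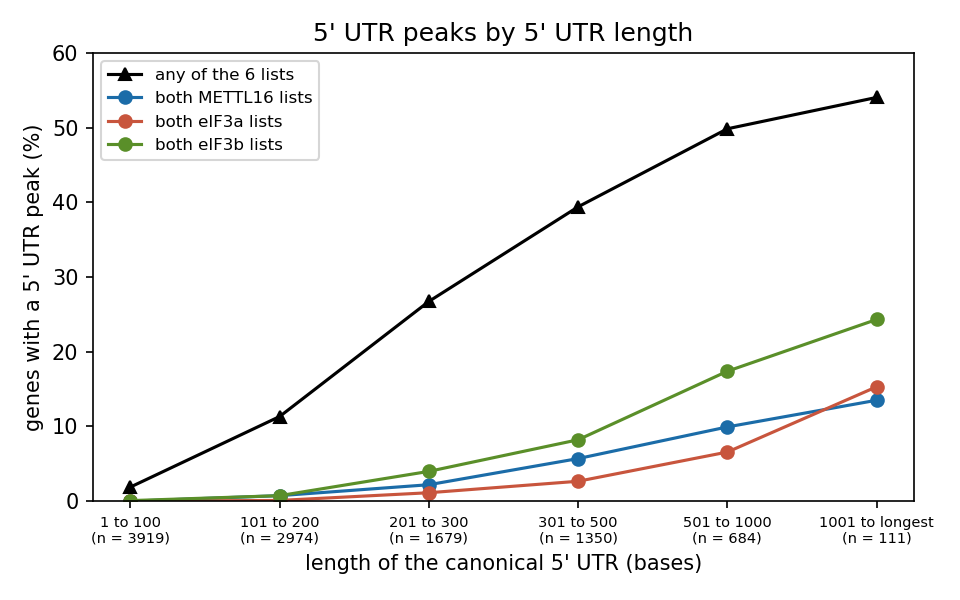
Percentage of genes with a 5′ UTR peak against the length of the canonical 5′ UTR in bases, with the number of genes in each class; triangles are genes with a member in any of the 6 lists and circles are genes with a member in both lists of a protein. The share in any list climbs from 1.89% in the shortest class to 54.1% in the longest, and all 3 proteins climb as well.

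Within the 5′ UTR the peaks lay mostly in the first exon and away from the start codon. Between 74.3% and 83.9% of the members of a list lay wholly in exon 1, and 11.3% to 18.6% spanned several exons. The median peak centre lay 42% to 46.2% of the way from the transcript start to the start codon, and the median peak covered 31.1% to 43.9% of its 5′ UTR. The annotated first base was covered by 15.3% to 31.0% of the members.

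The last base of a peak was a median of 93 to 139 bases from the start codon, with the largest distance in eIF3a replicate 2. Between 12.5% and 19.0% of the members ended within 30 bases of it. The coverage near the start codon is low by construction, because a peak that crosses it counts as a start codon peak. Between 69.5% and 83.1% of the members of a list had every base inside the canonical 5′ UTR, and the others reached upstream of the annotated start or into exonic sequence of other transcripts.

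**Figure D3:**
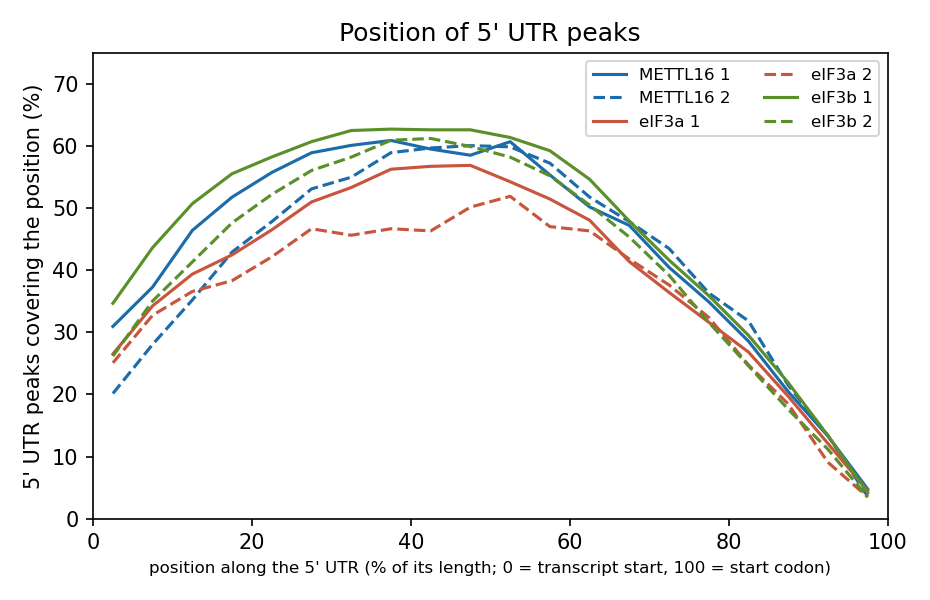
Percentage of the 5′ UTR peaks of each list (solid, replicate 1; dashed, replicate 2) that cover each position of the 5′ UTR, from the transcript start at 0 to the start codon at 100% of its length. All 6 lists are highest in the middle and lowest at the start codon, and eIF3a replicate 2 is the flattest.

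Short sequence patterns were counted in 150-base windows at the centre of members whose whole window lay in the 5′ UTR. They were set beside tiles of the same length that lay in the 5′ UTR of the same genes outside any peak, and beside 9511 tiles over all genes with a peak. The number of windows ran from 132 of 287 members in eIF3a replicate 2 to 459 of 891 in eIF3b replicate 1. Members on a short 5′ UTR or near its ends were thus left out. ATG, on the sense strand, was in 34.6% to 44.7% of the windows of a list, in 52.9% to 62.4% of the uncovered tiles and in 50.6% of all tiles. TTTTT was in 2.28% to 8.33% of the windows, 15.96% to 20.4% of the uncovered tiles and 10.6% of all tiles. Both patterns were thus less frequent under the peaks in all 6 lists.

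A G-quadruplex pattern, that is 4 runs of at least 3 G with 1 to 7 bases between them, was in 7.41% to 10.6% of the windows, 2.6% to 7.23% of the uncovered tiles and 6.87% of all tiles. The repeat CGGCGGCGG was in 3.03% to 7.41% of the windows, 4.63% to 8.37% of the uncovered tiles and 7.99% of all tiles. It was more frequent under the peaks than in the uncovered tiles in eIF3a replicate 1 and eIF3b replicate 1 and less frequent in the other 4 lists. ACAGAGA, the letters around the methylated A of U6, was in 0.813% to 1.8% of the windows, 0.957% to 1.63% of the uncovered tiles and 1.15% of all tiles. GC content differed between the same windows and tiles, at 65.2% to 73.1% under the peaks and 59.6% to 62.5% outside, and its part in these shares was not tested. Shares of a few percent rest on few windows, and a match describes letters and not a binding site.

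Peaks within the 5′ UTR had a higher median fold over input than peaks inside the coding sequence in every list, and against peaks on the start codon or in the 3′ UTR the order varied between lists. Their median fold was 4.08 and 4.21 in the METTL16 lists, 3.31 and 2.69 in the eIF3a lists, and 3.92 and 3.23 in the eIF3b lists. The median of peaks lying only on coding sequence was 2.71 and 3.02, 2.66 and 2.52, and 2.75 and 2.62 in the same order. The 5′ UTR median was the higher one in 6 of 6 lists, and in eIF3a replicate 2 the medians were nearest to each other.

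The log2 difference of the medians against coding peaks was 0.38 ± 0.18 (SD, n = 6 lists), a ratio of 1.3. Its exact two-sided sign-flip permutation p was 0.031, which is the smallest that 6 lists allow. It was 0.0469 after Benjamini-Hochberg adjustment over 6 comparisons, 3 of fold and 3 of width. The test takes the 6 lists as independent, though they are 2 replicate lists for each of 3 proteins in the same cell line. Adjusted over the 3 fold comparisons alone, the exact permutation p was 0.0938, so the call rests on counting the widths, which are no test here. Among peaks of at least 4-fold the log2 difference was 0.08. Only peaks that passed the peak calling enter these medians, and the classes differ in width. The part of the calling cutoff in the difference was not tested. Against start codon peaks it was -0.09 ± 0.34 (SD, n = 6), higher in 3 of 6 lists, with an adjusted exact p of 0.844. Without eIF3a replicate 2, where start codon peaks had a median of 4.54-fold, it was 0.04. Against 3′ UTR peaks it was 0.05 ± 0.10 (SD, n = 6), higher in 3 of 6 lists, with an adjusted exact p of 0.375. Leaving out any 1 list leaves 5, which cannot go below 0.0625 unadjusted.

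The members were also the narrowest of the classes compared. Their median width was 150 or 151 bases in 5 lists and 121 bases in eIF3a replicate 1, against 180 to 210 bases for coding peaks and 210 to 450 bases for start codon peaks. The mean log2 difference in width was -0.86 against start codon peaks, -0.35 against coding peaks and -0.31 against 3′ UTR peaks. Membership uses where a peak ends, since a peak that reaches the start codon is no member, so these widths are a description and no test is drawn from them.

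**Figure D4:**
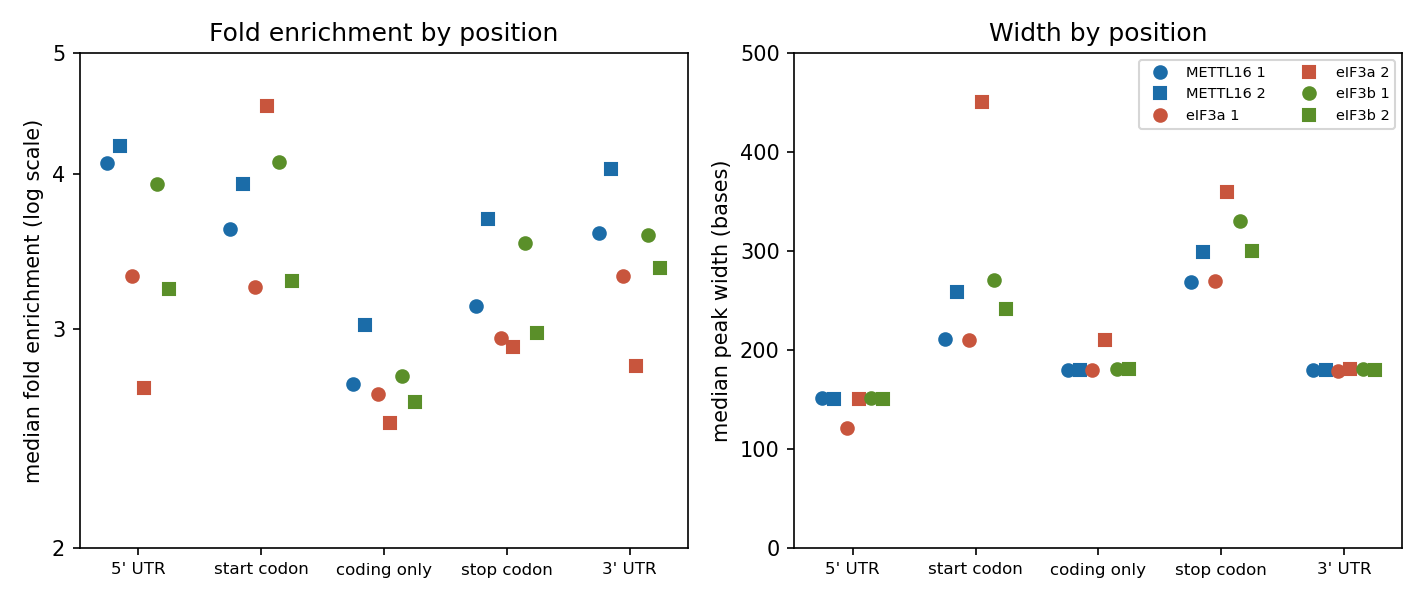
Median fold enrichment over input on a log axis (left) and median width in bases (right) of the peaks of each list, by where they lie on the transcript (circles, replicate 1; squares, replicate 2). In each list the 5′ UTR median exceeds that of coding peaks in fold and is below all other classes in width.

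A 5′ UTR peak was present in both lists for 219 genes with METTL16, 120 with eIF3a and 349 with eIF3b, which is 2.04%, 1.12% and 3.26% of the 10717 genes. Of the 1793 genes with a member anywhere, 947 (52.8%) had it in 1 list only and 30 had it in all 6, which is 0.28% of the 10717. In 28 of these 30 the peaks shared at least 1 base in all 6 lists.

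As a share of the genes with a 5′ UTR peak in either replicate, those with one in both were 28.2% for METTL16, 15.3% for eIF3a and 29.1% for eIF3b. For coding peaks the shares were 47.7%, 39.2% and 55.7%, and for 3′ UTR peaks 43.9%, 43.8% and 55.9%. For start codon peaks they were 33.9%, 13.8% and 34.2%. The classes differ in size, with 776 genes in either METTL16 list for the 5′ UTR and 5516 for coding peaks, and no test of a difference between them was run.

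Some members had a partner in the other replicate that ended elsewhere. Of the 5′ UTR peaks of a list, a mean of 37.9% ± 10.5 (SD, n = 6 directed pairs of replicates) were overlapped by a 5′ UTR peak in the other replicate. A further 13.4% ± 7.54 were overlapped by a peak that also reached the start codon. For 30.1% ± 9.17 the other replicate had peaks only elsewhere on the gene, and for 18.2% ± 8.97 it had none on the gene. JUN and IGF1R, described below, changed class between lists in this way.

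In the mean, replicates of 1 protein resembled each other somewhat more than lists of different proteins, with eIF3a an exception. The Jaccard index, the number of shared genes over the number in either list, had a mean of 0.242 ± 0.0769 (SD, n = 3) within proteins and 0.196 ± 0.0563 (SD, n = 12) between them. For the bases under the members it was 0.215 within and 0.166 between. Each difference had a one-sided exact permutation p of 0.067, the smallest that the 15 ways of pairing 6 lists allow. The 2 eIF3a lists had an index of 0.153 for genes, lower than most pairs between proteins. The highest of those was the 0.280 between eIF3a replicate 1 and eIF3b replicate 2.

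The genes of METTL16 were set beside those of the other proteins, whose lists differ in size, with a member in both lists for 3.26% of all genes with eIF3b and 1.12% with eIF3a. These background shares rise with 5′ UTR length. Genes with a member had a median 5′ UTR of 358 and 367.5 bases in the METTL16 lists. Among genes with 301 to 500 bases, 8.22% had a member in both eIF3b lists and 2.67% in both eIF3a lists. The sharing below was not compared at matched length. Of the 219 genes with a 5′ UTR peak in both METTL16 lists, 102 (46.6%, 95% Wilson interval 40.1 to 53.2) also had one in both eIF3b lists and 44 (20.1%, 15.3 to 25.9) in both eIF3a lists. The 102 genes were 29.2% of the 349 of eIF3b, and the 44 were 36.7% of the 120 of eIF3a. All 3 proteins had a member in both lists for 30 genes, 13.7% of the 219 (9.77 to 18.9), and these intervals cover counting error over genes only. With eIF3a replicate 1 alone in place of both eIF3a lists the share was 31.5%.

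Overlap was counted among peaks whose gene had a peak in the other list. Of the METTL16 5′ UTR peaks, 76.8% ± 11.4 (SD, n = 4 pairs of lists) were overlapped by an eIF3b peak of any class and 43.1% ± 11.7 (SD, n = 4) by an eIF3a peak. The same shares for METTL16 coding peaks were 73.6% ± 10.98 and 60.8% ± 8.41, and for its 3′ UTR peaks 76.2% ± 3.91 and 71.0% ± 1.76. With eIF3a the 5′ UTR was the class with the lowest share, and with eIF3b the means of these classes ran from 73.6% to 76.8%. The 4 pairs share lists and are no replicates, so their SD cannot show whether classes differ. For the METTL16 members the overlap by eIF3b was 67.2% without eIF3b replicate 1 and 86.4% without eIF3b replicate 2. In the other direction, METTL16 peaks overlapped 65.1% ± 4.60 (SD, n = 4) of eIF3a 5′ UTR peaks, 51.6% of its coding peaks and 40.6% of its 3′ UTR peaks. Of eIF3b 5′ UTR peaks, 37.6% ± 10.7 (SD, n = 4) were overlapped by an eIF3a peak, against 58.5% for coding and 62.1% for 3′ UTR peaks. With eIF3a replicate 1 alone, 53.0% of the METTL16 members were overlapped by an eIF3a peak, and no test of the difference between classes was run. Set against the other replicate of the same protein, the overlap of 5′ UTR peaks was 68.7% for METTL16 (66.1 to 71.4 over 2 directed pairs). It was 50.6% for eIF3a (35.1 to 66.1) and 66.8% for eIF3b (54.3 to 79.3). The values between proteins are to be read beside these. Of the 219 METTL16 genes, 25 (11.4%) had no 5′ UTR peak in any eIF3a or eIF3b list, and 5 (2.28%) had no peak of any kind there. The same shares were not counted for other peak classes.

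Genes whose members shared a base in all 6 lists were ordered by their worst rank by p-value over the lists, and the 10 with the smallest worst rank were PAFAH1B1, PPP1CC, PLCE1, TGFB1, LRCOL1, RBBP6, KLF3, CPEB4, SMAD4 and HOMER1. They were chosen for their place in these lists, so their values are a description. In the order METTL16 replicates 1 and 2, eIF3a 1 and 2, eIF3b 1 and 2, the strongest 5′ UTR peak of PAFAH1B1, a regulator of the motor protein dynein, was enriched 10.2, 10.5, 4.78, 5.38, 22.8 and 7.56-fold. The stretch shared by the 6 lists was chr17:2593689-2593987, 299 bases of a 5′ UTR of 543. In all 6 lists its other peaks, where present, were weaker, at 2.64-fold or less.

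PPP1CC encodes a catalytic subunit of protein phosphatase 1. Its folds in the same order were 23.8, 10.1, 9.03, 5.51, 31.6 and 14.1, and in all 6 lists the 5′ UTR peak was the only peak on the gene. The peaks covered 66.8% to 98.9% of a 5′ UTR of 184 bases that held 75% G and C and no upstream ATG, and they reached past the annotated transcript start. The eIF3a values were the lowest pair.

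PLCE1, a phospholipase C, was enriched 12.1, 9.33, 89.3, 14.2, 34.6 and 13.8-fold. The peak had the same ends in all 6 lists, chr10:94030713-94030893 in exon 2, and it was again the only peak on the gene. LRCOL1 behaved alike, with 16.7, 18.9, 26.3, 13.8, 17.5 and 14.5-fold at chr12:132610364-132610451 in exon 1 in each list. For PLCE1 both METTL16 lists were below the other 4, and for LRCOL1 the eIF3a lists held both the highest and the lowest value.

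TGFB1 and SMAD4 encode the ligand transforming growth factor beta 1 and the shared SMAD that carries its signal to the nucleus. TGFB1 was enriched 7.45, 4.56, 3.53, 1.86, 6.43 and 4.08-fold, and its peak covered 69.8% of the 5′ UTR in both METTL16 lists but 23.7% in eIF3a replicate 2. SMAD4 was enriched 7.73, 4.21, 3.4, 2.41, 13.7 and 11.2-fold, and in 3 lists its peak overlapped a second gene model on the same strand. For both genes the eIF3a lists were the lowest pair and did not overlap with the METTL16 and eIF3b lists.

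CPEB4, which binds cytoplasmic polyadenylation elements, and HOMER1, a scaffold of synapses, have long 5′ UTRs of 1385 and 1360 bases with 9 and 10 upstream ATGs. CPEB4 was enriched 9.56, 15.5, 4.71, 2.79, 9.23 and 7.19-fold and HOMER1 6.15, 7.58, 10.6, 5.12, 15.2 and 7.26-fold. Both carried their peak more than 500 bases before the start codon in every list. RBBP6, a ubiquitin ligase that binds RB1, had 7.69, 4.92, 3.78, 3.98, 33.9 and 14.2-fold, and KLF3, a transcriptional repressor, 6.06, 5.36, 3.25, 2.45, 7.94 and 2.81-fold. KLF3 peaks overlapped exons of the antisense gene KLF3-AS1, and how the peak calling used strand is not given in the sources used here, so the reads of both genes cannot be told apart.

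**Figure D5:**
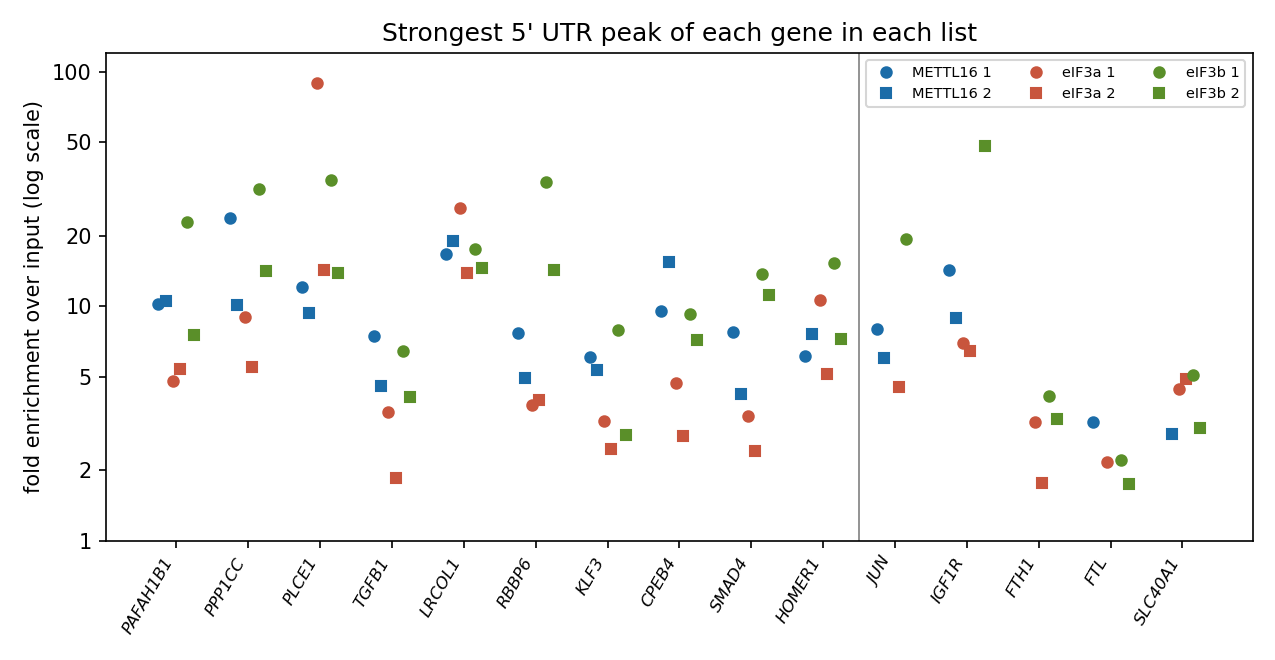
Fold enrichment over input, on a log axis, of the strongest 5′ UTR peak of each gene in each list (circles, replicate 1; squares, replicate 2); the line separates genes found in all 6 lists from JUN, IGF1R and 3 genes with an iron responsive element, where a missing point means no 5′ UTR peak in that list. PLCE1 reaches 89.3-fold in eIF3a replicate 1, and the eIF3a points lie low for TGFB1, SMAD4 and PPP1CC.

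Members found with 1 protein alone were rarer. Overlapping 5′ UTR peaks in both replicates, with no peak on the gene in the 4 other lists, were found on 5 genes for METTL16, 1 for eIF3a and 11 for eIF3b. Genes with a member in both lists of the same protein numbered 219, 120 and 349 in that order. The lists ran from 287 members in eIF3a replicate 2 to 891 in eIF3b replicate 1. Such genes were not counted among other peak classes, so the counts do not show a difference between the proteins. For METTL16, RAX, a homeobox transcription factor of the eye field, had 66.2 and 54.8-fold. SBDS, a ribosome maturation factor, had 3.16 and 2.38-fold, but its peak overlapped an exon of TYW1 on the other strand and the gene has a close pseudogene, so its values are uncertain. MAF1, a repressor of RNA polymerase III, had 1.53 and 1.71-fold, CFB, complement factor B, 1.57 and 1.3-fold, and MARCHF5, a mitochondrial ubiquitin ligase, 2.48 and 2.7-fold. Apart from RAX these folds lay below the list medians of 4.08 and 4.21.

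For eIF3a the gene was DLG2, a synaptic scaffold, with 7.44 and 19.6-fold. For eIF3b the first 5 by rank were GNG5 (2.97 and 2.85-fold), ZDHHC14 (23.8 and 9.79-fold), FAM72B (15.1 and 18.6-fold), OSBPL11 (5.03 and 8.07-fold) and PHOSPHO2 (9.15 and 5.87-fold). GNG5 is a G protein gamma subunit and ZDHHC14 a palmitoyltransferase. FAM72B has near-identical paralogs, GNG5 overlaps SPATA1 on the other strand and PHOSPHO2 shares exons with KLHL23, so these 3 are uncertain. A gene without a peak in a list can be below its threshold there, which the lists do not show.

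On 127 of the 1793 genes with a member every peak of every list lay within the 5′ UTR, and 69 of these had peaks in 1 list only. PPP1CC, PLCE1 and LRCOL1 were of this kind in all 6 lists. CSNK1A1, casein kinase 1 alpha, had 2.69, 2.38, 1.72, 2.62 and 2.02-fold and RBBP7, a histone chaperone, 14, 2.29, 1.86, 12.6 and 6.38-fold in the 5 lists other than eIF3a replicate 2.

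Genes known for their 5′ UTR were counted in groups, to be read beside the 16.7% of all genes with a peak that carried a member in some list. The groups differ in 5′ UTR length, and no test of a group was run. Of 6 genes with an iron responsive element in the 5′ UTR, 4 carried a member in some list. In both lists of a protein there were 3 with eIF3a, 3 with eIF3b and 0 with METTL16, beside 1.12%, 3.26% and 2.04% of all genes. FTH1, the ferritin heavy chain, had 5′ UTR peaks of 3.2, 1.76, 4.13 and 3.3-fold in the eIF3a and eIF3b lists, and in both METTL16 lists its peak also crossed the start codon, at 6.41 and 2.76-fold. The loop printed above lay under the 5′ UTR peak in eIF3a replicate 1 and both eIF3b lists and under the start codon peak in both METTL16 lists, but outside the 61-base peak of eIF3a replicate 2.

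FTL, the ferritin light chain, had 5′ UTR peaks of 3.2-fold in METTL16 replicate 1, 2.17 in eIF3a replicate 1 and 2.2 and 1.75 in the eIF3b lists, all over the loop. In the other 2 lists it had only a coding peak. SLC40A1, the iron exporter ferroportin, had 2.86-fold in METTL16 replicate 2, 4.44 and 4.9 in eIF3a, and 5.1 and 3.01 in eIF3b, over the loop each time, and METTL16 replicate 1 had no peak on the gene. EPAS1, a hypoxia-inducible factor, had its loop under a peak in eIF3b replicate 1 alone, at 5.18-fold, though 3 other lists had a member elsewhere in its 5′ UTR, at different places in the 2 eIF3a lists. No peak lay on the loop of ALAS2. Ferritin genes have many processed pseudogenes, so their values are uncertain.

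JUN, whose 5′ UTR has been described as a site of eIF3, carried the most significant 5′ UTR peak of eIF3b replicate 1, with 19.3-fold. It had 7.96 and 6.04-fold in the METTL16 lists and 4.51-fold in eIF3a replicate 2. In eIF3a replicate 1 and eIF3b replicate 2 the peak also crossed the start codon, and there 85.4% and 88.3% of the 5′ UTR lay under peaks. BTG1, the other gene listed for eIF3 binding, had no member in any list, while start codon peaks covered 39.2% to 100% of its 5′ UTR in the METTL16 and eIF3b lists and no eIF3a list had a peak on the gene.

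Of 13 genes with a proposed internal ribosome entry site or long structured 5′ UTR, 7 carried a member in some list. IGF1R, the receptor of insulin-like growth factor 1, had 14.2, 8.93, 6.99 and 6.43-fold in the METTL16 and eIF3a lists and 48.3-fold in eIF3b replicate 2, where it was the most significant member. In eIF3b replicate 1 its peaks covered 100% of the 5′ UTR and crossed the start codon, with a highest fold on the gene of 60.2. APAF1, a core protein of the apoptosome, had 4.17-fold in METTL16 replicate 2 and 6.7, 2.52, 5.11 and 4.89-fold in the eIF3a and eIF3b lists. CDKN1B, a cell cycle inhibitor, had 2.68, 2.35 and 5.05-fold in both eIF3a lists and eIF3b replicate 2. MDM2 had a member in 4 lists, and CCND1, HIF1A and MYC in 1 list each, with 1.6, 1.86 and 1.13-fold.

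Of 11 genes with upstream start codons or a role in the stress response, such as ATF4 and DDIT3, 10 had a peak in some list and 0 had a member. Start codon peaks reached the 5′ UTR of ATF5 in eIF3a replicate 1, where they covered 87.9% of it, of PPP1R15B in both eIF3b lists and of PPP1R15A in eIF3b replicate 1. Of 16 terminal oligopyrimidine genes outside the ribosome, 1 carried a member, PABPC1 with 1.46-fold in eIF3b replicate 2. Its 5′ UTR of 505 bases was the longest of the 16, and those of the others had 15 to 114 bases, beside the 1.89% of all genes with up to 100 bases that carried a member. Of 53 ribosomal protein genes with a peak, 4 did, RPLP1, RPLP2, RPL8 and RPS20, with 1.2 to 2.46-fold. All of these folds were below the median of their list.

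Of 5 genes of polyamine control, 2 carried a member. AZIN1, the antizyme inhibitor, had 2.86, 2.49 and 1.67-fold in eIF3a replicate 2 and the eIF3b lists, and SAT1, which acetylates polyamines, 1.17 and 1.45-fold in METTL16 replicate 1 and eIF3b replicate 1. Both overlap another gene model on the same strand in at least 1 list. Of the hepatocyte markers, 1 carried a member, APOA1 with 1.23-fold in eIF3b replicate 2. The 3 immunoprecipitated proteins' own genes, METTL16, EIF3A and EIF3B, had peaks in all 6 lists but no member.

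Between 4.53% and 5.58% of the members of a list overlapped an exon of another gene on the same strand, and 7.32% to 10.9% one on the other strand.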

How the data were processed

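RIP-seq of METTL16, eIF3a and eIF3b in HepG2 was analysed from 6 peak lists, 1 per RIP sample, and groups were taken from the labels. The authors mapped reads with STAR to GRCh38 and called peaks over input with exomePeak at default parameters; versions, annotation, the input used for each sample and the use of strand are not given in the sources used here. For each peak the authors deposited exonic blocks, a gene name, the fold enrichment (a ratio), a p-value, and log10 values of the raw and adjusted p, which served as a ranking score. The largest adjusted p-value in a list was 0.0501.

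Of 10830 gene names, 10314 matched a current symbol of GENCODE release 44 at the same place, 462 an older symbol, 18 lay at another place or strand, and 36 did not match. Peaks were classed on the Ensembl canonical transcript. Shares were compared between proteins with exact permutation tests over lists, median folds between peak classes with sign-flip permutation over 6 lists, and Jaccard indices over 15 pairings, in Python 3.11.15 with statsmodels 0.14.6 for the Benjamini-Hochberg adjustment. The classification was tested on simulated data. Named genes were up to 10 with a shared base in all 6 lists, up to 5 per protein with overlapping members in both lists and no peak in the 4 others, up to 5 whose peaks all lay in the 5′ UTR, and the fixed groups, of which 1 gene is not reported here. The members and gene lists were chosen with earlier results of these data known. Alternatives were a fold of at least 4, the 5000 most significant peaks, stricter membership, bases or genes in place of peaks, other overlap rules and leaving out each list. No counts were used, so depth is unknown and intervals cover counting error over genes only.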

Additional observations from a re-analysis of the deposited data

Results flagged for a closer look

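The fold of 5′ UTR peaks relative to start codon peaks moved in opposite directions in all lists of METTL16 and all lists of eIF3b. The log2 difference of the medians was 0.17 and 0.10 in the METTL16 lists, with a mean of 0.14, and -0.06 and -0.02 in the eIF3b lists, with a mean of -0.0417. The difference between the proteins was not tested.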

How the results depend on the processing

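Of 197 recomputations of 20 results, 123 changed neither direction nor call, or moved by less than their spread. The share of peaks within the 5′ UTR depended on how it was counted. Among peaks of at least 4-fold it was 5.28% for METTL16 and 4.82% for eIF3b. For METTL16, eIF3a and eIF3b it was 2.84%, 1.51% and 2.88% among the 5000 most significant peaks per list, 3.07%, 2.004% and 2.81% where every base had to lie inside the 5′ UTR, 2.66%, 1.44% and 2.44% by bases, and 4.53% and 4.65% for METTL16 and eIF3b with 1 peak per gene. With 1 replicate dropped it ran from 3.82% to 4.04%, 2.22% to 2.97% and 3.49% to 4.28%. The near-zero difference between METTL16 and eIF3b turned to -0.04 points with 5000 peaks and -0.119 with 1 peak per gene, and ran from -0.347 to 0.44 points when 1 replicate was left out, negative without METTL16 replicate 2 or eIF3b replicate 2. With 1 replicate left out, METTL16 minus eIF3a ran from 0.963 to 1.71 and eIF3a minus eIF3b from -1.68 to -0.896. At 4-fold they were 2.43 and -1.97, with 1 peak per gene 1.85 and -1.97, and eIF3a minus eIF3b was -0.81 with every base inside.

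Genes with a member in both replicates fell to 89, 23 and 108 at 4-fold and 71, 30 and 69 with 5000 peaks for METTL16, eIF3a and eIF3b, and to 231 for eIF3b with every base inside. With a member in either replicate they were 776, 782 and 1201, and in the 1 replicate left when the other was dropped 491 to 504, 277 to 625 and 678 to 872. The share of METTL16 genes also found with both other proteins was 5.62% at 4-fold, 30.9% in either replicate, and 6.94% to 31.5% when 1 replicate was left out, with 6.94% and 8.55% without METTL16 replicates 1 and 2, 31.5% without eIF3a replicate 2 and 19.2% without eIF3b replicate 1. The overlap of METTL16 members by eIF3b peaks was 65.0% at 4-fold.

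The log2 fold against coding peaks was 0.08 at 4-fold (adjusted exact permutation p = 0.0469) and 0.41 with 5000 peaks (adjusted exact p = 0.0938). It was 0.38 with p = 0.0938 by the exact permutation test when adjusted over the 3 fold comparisons, a setting chosen after seeing the data, and 0.34 to 0.44 with 1 list left out, where the 5 lists that remain cannot pass. The widths, which membership bears on, were with 5000 peaks -0.67, -0.44 and -0.33 on the log2 scale against start codon, coding and 3′ UTR peaks, and with 1 list left out -0.94 to -0.72, -0.37 to -0.31 and -0.32 to -0.26. Against start codon peaks the log2 fold turned to 0.0031 at 4-fold, and it ran from -0.141 to 0.0447 with 1 list left out, positive only without eIF3a replicate 2. Against 3′ UTR peaks it turned to -0.0523 at 4-fold, -0.0522 with 5000 peaks and -0.0202 with every base inside. The cause of these changes was not tested.

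In the share of peaks, replicate numbers gave no shared deviation, since replicate 1 had the larger share in eIF3a and eIF3b and the smaller in METTL16. Other measures did share a direction. Replicate 1 exceeded replicate 2 in log2 fold against coding peaks, at 0.59 and 0.48 (METTL16), 0.32 and 0.09 (eIF3a), 0.51 and 0.30 (eIF3b). The 5′ UTR peaks of replicate 1 also held more G and C for all 3 proteins, and the cause was not tested. Taking same-numbered lists as pairs in a replicate block left the differences in share at 1.34, 0.0467 and -1.29 points, with exact permutation p of 0.5, 1 and 0.5. The block gave a Jaccard difference of 0.0467 for genes and 0.0489 for bases, and overlaps of 43.7% and 76.7% of METTL16 members by eIF3a and eIF3b peaks. Without the block the Jaccard difference was 0.0457 for genes, 0.0165 to 0.107 with 1 list left out, smallest without eIF3b replicate 1 or METTL16 replicate 2 and largest without eIF3a replicate 1. It was 0.049 for bases, 0.0224 to 0.102 with 1 list left out, smallest without METTL16 replicate 2 or eIF3b replicate 1 and largest without eIF3a replicate 1.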

Other observations

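Members with the highest folds of a list are given here, chosen after their values were seen. MEIS3, a homeobox gene, had 3420-fold in METTL16 replicate 1 and no 5′ UTR peak in the other 5 lists, and STX8, a SNARE protein, had 415-fold in METTL16 replicate 2 alone. PUM2, an RNA-binding repressor, had 273-fold in eIF3a replicate 1 beside 2.78-fold in METTL16 replicate 1. SYNCRIP, an RNA-binding protein, had 305 and 176-fold in the eIF3b lists and no member elsewhere, and FOSL2, a partner of JUN in AP-1, had a member in all 6 lists, with 79.2 and 51.4-fold in eIF3b and 2.67 to 7.19-fold in the other 4.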
